A study of Mus musculus with 9 samples.

Results

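Genes for SR proteins, hnRNPs and Clk kinases were followed in mouse embryonic fibroblasts under 2 intensities of hyperosmotic stress. They were taken by symbol, as every protein-coding gene of the table whose name starts with Srsf and a number or with Hnrnp, or is Clk1, Clk2, Clk3 or Clk4. The rule found 35 of the 35275 genes listed: 11 SR protein genes, 20 hnRNP genes and 4 Clk genes. Of these, 34 had enough counts to be tested, among 13082 tested genes in all. Only Srsf12 did not.

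SR proteins bind exonic sequences of pre-mRNA through RNA recognition motifs, and their arginine- and serine-rich domain helps to recruit the splicing machinery. The hnRNPs coat nascent transcripts and often oppose SR proteins in the choice of splice sites, and they also act in mRNA export, stability and translation. Clk kinases phosphorylate the arginine- and serine-rich domain of SR proteins in the nucleus. Many of these genes make, besides the coding mRNA, transcripts that keep an intron or carry a premature stop codon, by which the proteins limit their own level. In osmotically stressed cells hnRNP A1 is known to move from the nucleus to the cytoplasm.

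All libraries came from wild type C57Bl/6 mouse embryonic fibroblasts (MEFs), a culture of connective tissue cells from the embryo. Control cells stayed in iso-osmolar medium. The other cells were given sucrose for 3 h, 200 mM for a total of 500 mOsm (low-intensity stress) or 300 mM for a total of 600 mOsm (high-intensity stress), and each treatment was sequenced as 3 libraries of poly-A RNA. Whether the 3 libraries of a treatment came from separate cultures, and how the fibroblast line was derived, is not given in the sources used here, so the p-values measure the spread between these libraries, which may be technical.

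Libraries held 21716042 to 26740832 counts on genes. Replicates were distinct libraries: the chi-square of their counts per degree of freedom lay between 5.15 and 15.4 within treatments. Of 14 fibroblast markers, 13 to 14 had a count in every library, with a summed level of 22540 to 24001 CPM (counts scaled to a common library size) in control, 22160 to 23352 at 500 mOsm and 25047 to 27214 at 600 mOsm. Single markers went both ways. At 600 mOsm against control 4 of 13 tested were higher and 4 lower in edgeR (30.8% each, where 15.1% and 20.0% of all tested genes were). Col1a1 went from 8391 to 9438 CPM in control to 10456 to 12226 at 600 mOsm. Prrx1 went from 63.0 to 69.6 to 33.6 to 36.6 CPM, and Pdgfra from 36.7 to 38.5 to 21.9 to 26.7 CPM. Dcn read 0 to 0.113 CPM over all libraries. Markers of other cell types summed to far less than those of fibroblasts but moved with treatment. The 5 endothelial markers summed to 0.778 to 0.900 CPM in control, 11.95 to 13.4 at 500 mOsm and 2.13 to 3.18 at 600 mOsm, with Pecam1 at 0.182 to 0.450, 10.6 to 12.0 and 1.30 to 2.37 CPM, and with Tie1 at 0 in all libraries. Most of the sum at 500 mOsm was thus Pecam1. Cdh5 overlapped between control and 500 mOsm and was highest at 600 mOsm (0.450 to 0.637, 0.492 to 0.679 and 0.712 to 0.806 CPM). Kdr read 0, 0.226 to 0.451 and 0 to 0.155 CPM, and Tek 0 to 0.0455, 0.452 to 0.496 and 0 to 0.126 CPM. The 6 epithelial markers summed to 0.0455 to 0.164, 3.47 to 3.73 and 0.134 to 0.209 CPM in the same order, at 500 mOsm mostly from Cdh1 (3.28 to 3.69 CPM), with Esrp1 at 0 throughout and Epcam at 0 in control. The 6 neural markers summed to 0.0409 to 0.205, 0.452 to 0.656 and 0.403 to 0.928 CPM. The 5 leukocyte and macrophage markers in the table summed to 34.4 to 37.8, 28.6 to 30.8 and 29.0 to 32.0 CPM, with Ptprc at 0 to 0.264 CPM. The part of these shifts in the results was not tested. In RNA from whole cultures, fewer cells with a transcript and less of the transcript per cell cannot be told apart.

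The 4 Clk genes are close relatives, and the sequences that follow are shown because reads were assigned to each gene on the strength of such differences. They are the 33 coding bases around the signature for which this kinase family is also called LAMMER kinases, taken from GENCODE M21 transcripts, 5′ to 3′, and capitals mark bases that differ from Clk4.
Clk1: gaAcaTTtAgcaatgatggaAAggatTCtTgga
Clk2: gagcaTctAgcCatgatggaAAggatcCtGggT
Clk3: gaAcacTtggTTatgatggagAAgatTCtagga
Clk4: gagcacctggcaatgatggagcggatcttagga
Clk1 differs from Clk4 at 9 of these 33 bases, and Clk2 and Clk3 at 8 each. Over their aligned coding sequence, Clk1 and Clk4 had 76.1% identical bases, as had Clk2 and Clk3. No Clk gene shared a stretch of 100 bases at 95% identity or more with another Clk gene. In mm10, the Clk genes lie at chr1:58410189-58424066 (Clk1), chr3:89164795-89176921 (Clk2), chr9:57750711-57765860 (Clk3) and chr11:51261730-51281766 (Clk4).

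The Clk genes responded to low-intensity stress in opposite directions. Clk2 fell by 43.6% at 500 mOsm and Clk3 by 17.5%, Clk4 rose 1.41-fold, and Clk1 did not pass. At 600 mOsm against control Clk2 was the only Clk gene that passed, again lower. Levels here and in what follows are CPM scaled by TMM factors, unless FPKM is named, and a gene is said to rise or fall where edgeR's adjusted p over all tested genes was under 0.05.

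Clk2 stood at 25.3, 26.0 and 22.7 CPM in the control libraries, at 13.4, 15.0 and 13.3 CPM at 500 mOsm, and at 16.5, 15.9 and 17.2 CPM at 600 mOsm. Every stressed library lay below every control library, and the 500 mOsm libraries lay below those at 600 mOsm. Against control it changed by -0.83 ± 0.08 (log2 fold change, SE, n = 3 per treatment) at 500 mOsm (adjusted p = 8.90e-06) and -0.58 ± 0.08 at 600 mOsm (adjusted p = 0.000200). Between the intensities Clk2 was higher at 600 mOsm by 0.25 ± 0.09 (adjusted p = 0.0421). That last call was not kept without control replicate 1, without 500 mOsm replicate 1 or 3, or without 600 mOsm replicate 1 or 3 (log2 fold change of 0.22 to 0.32 over all libraries left out in turn, adjusted p of up to 0.127), nor with DESeq2 or library size alone.

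Clk4 stood at 14.9, 12.9 and 14.4 CPM in control and rose to 21.0, 17.9 and 20.7 CPM at 500 mOsm. At 600 mOsm it stood at 14.5, 15.1 and 12.6 CPM, overlapping with control. The 500 mOsm libraries lay above all others. Clk4 rose at 500 mOsm by a log2 fold change of 0.50 ± 0.10 against control (adjusted p = 0.00196), and from 500 to 600 mOsm it was -0.50 ± 0.10 (adjusted p = 0.00218).

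Clk3 stood at 33.4, 34.9 and 36.9 CPM in control, at 29.2, 29.3 and 28.4 CPM at 500 mOsm and at 32.5, 30.0 and 31.8 CPM at 600 mOsm. Clk3 fell at 500 mOsm (log2 fold change -0.28 ± 0.06, adjusted p = 0.00594). At 600 mOsm its libraries lay between those of the other treatments, and neither comparison passed (adjusted p = 0.0748 against control and 0.20 against 500 mOsm). Its exons share 1284 bases with those of Edc3 on the opposite strand, and no counting strand is given in the sources used here.

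Clk1 was the lowest tested gene of the 34 per length, at 1.93 ± 0.281 FPKM in control (SD, n = 3). Its libraries read 9.29, 8.07 and 10.6 CPM in control, 10.6, 8.37 and 9.04 CPM at 500 mOsm and 6.74, 8.28 and 7.62 CPM at 600 mOsm. The 600 mOsm libraries overlapped with control and lay below all those at 500 mOsm. At 600 mOsm the log2 fold change was -0.31 ± 0.13 against control (adjusted p = 0.0905) and -0.30 ± 0.13 against 500 mOsm (adjusted p = 0.103). The length of 4865 bases that the table gives to Clk1 is that of its longest transcript in GENCODE M21. Of the Clk1 transcripts in that annotation 7 are of the retained intron class and 2 of the nonsense-mediated decay class. For Clk4 these numbers are 7 and 3, for Clk3 4 and 1 and for Clk2 4 and 1. Counts per gene add all of these classes together.

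**Figure D1:**
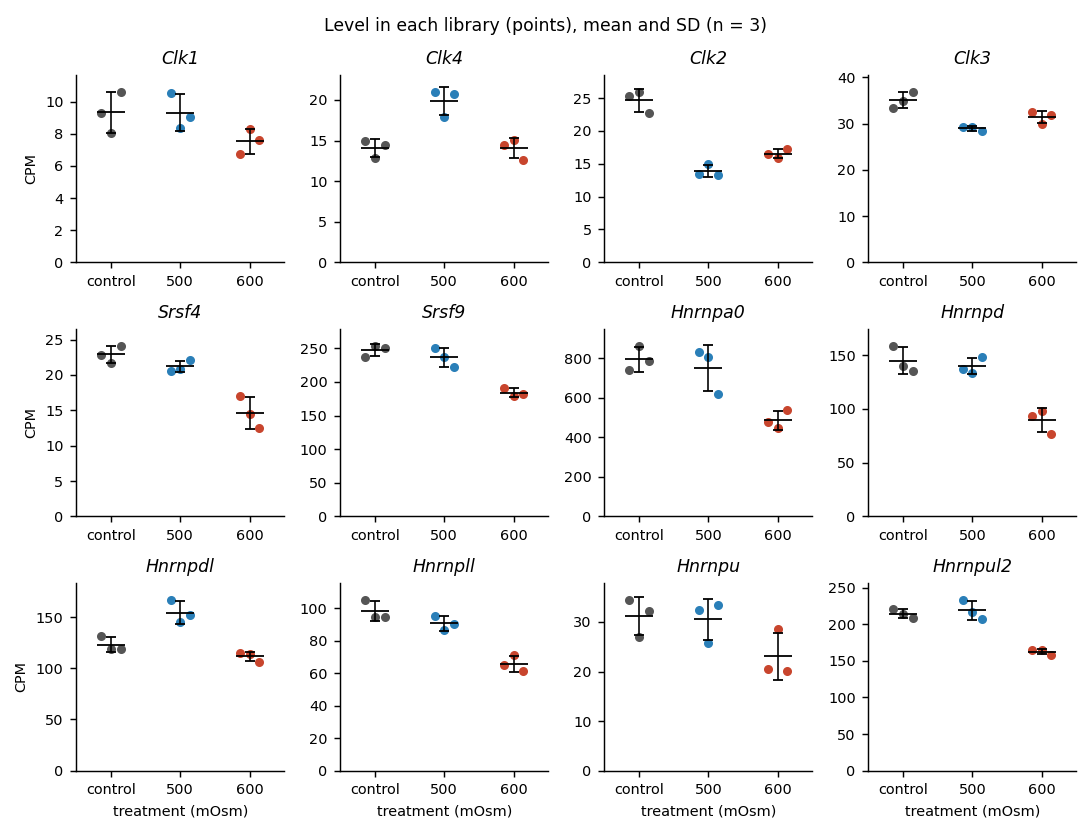
CPM (vertical axes from 0) of the 4 Clk genes and 8 further genes in each library, by treatment; points are libraries, and the bars give the mean and SD (n = 3). Clk4 is highest at 500 mOsm (17.9 to 21.0 CPM), Clk2 is lowest there (13.3 to 15.0 CPM), and Srsf4, Srsf9, Hnrnpa0, Hnrnpd, Hnrnpll and Hnrnpul2 are lowest at 600 mOsm, while Hnrnpu overlaps with control at 600 mOsm.

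Promoter sequences of Clk2 and Clk4, whose levels moved in opposite directions at 500 mOsm, are printed from RefSeq (GRCm38.p6), from 250 bases before to 50 bases after the start, 5′ to 3′ on the gene's strand. Capitals mark matches on either strand to the GC box, which was searched as GGGCGG. They also mark the CCAAT box, searched by the letters of its name, and the core of the cAMP response element (CRE), searched as TGACG.
Clk2 (chr3:89164545-89164844, strand +): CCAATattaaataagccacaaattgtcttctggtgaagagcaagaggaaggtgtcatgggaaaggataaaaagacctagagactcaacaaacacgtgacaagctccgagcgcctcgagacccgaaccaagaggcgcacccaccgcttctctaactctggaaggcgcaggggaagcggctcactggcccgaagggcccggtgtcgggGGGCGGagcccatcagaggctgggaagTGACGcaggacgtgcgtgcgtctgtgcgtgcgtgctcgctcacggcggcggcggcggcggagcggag
Clk4 (chr11:51262864-51263163, strand +): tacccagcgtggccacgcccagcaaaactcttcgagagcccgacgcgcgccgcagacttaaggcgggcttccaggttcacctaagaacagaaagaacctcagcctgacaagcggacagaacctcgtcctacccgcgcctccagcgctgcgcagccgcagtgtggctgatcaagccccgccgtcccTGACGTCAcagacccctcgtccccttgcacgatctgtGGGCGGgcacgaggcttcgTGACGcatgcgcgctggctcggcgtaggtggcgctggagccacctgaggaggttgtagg
The Clk2 window held 1 GC box, 1 CCAAT box and 1 CRE core. The Clk4 window held 1 GC box and 3 CRE cores, of which a pair overlap on the 2 strands. For Clk4 the RefSeq start lies inside the span that the table gives the gene. Over all 32851 promoters of the table, 35.7% held a GC box, 37.4% a CCAAT box and 20.8% a CRE core. These are matches of letters, and binding was not measured. RefSeq promoters were matched for 32 of the 35 genes, with Clk1, Hnrnpll and Hnrnpul2 unmatched.

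At low intensity few SR protein and hnRNP genes passed the test. Against control, 4 of the 34 tested genes rose at 500 mOsm, namely Clk4, Hnrnpa1, Hnrnpdl and Hnrnpl, where 13.2% of all tested genes were higher (11.8% of the 34). Clk2, Clk3 and Srsf7 fell, 3 of 34 or 8.82%, where 14.8% of all tested genes were lower. The median absolute log2 fold change of the 34 genes was 0.08, against 0.17 over all tested genes.

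At high intensity the calls were nearly all decreases. Against control, 15 of the 34 genes were lower at 600 mOsm (44.1%), where 20.0% of all tested genes were lower, and Hnrnpl alone was higher (2.94%), where 15.1% were. Compared with 500 mOsm, 15 genes were lower at 600 mOsm (44.1%), where 17.2% of all tested genes were, and Clk2 alone was higher (2.94%), where 11.9% were. No change reached 2-fold in any comparison. The median log2 fold change of the 34 genes was -0.14 against control and -0.17 against 500 mOsm, and that of all tested genes was 0.01 in each. The comparisons share libraries and are not independent. With a library left out in turn, the number lower against control lay between 10 and 15, and over the other settings between 10 and 16, the fewest with a correction for gene length together with a replicate block.

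**Figure D2:**
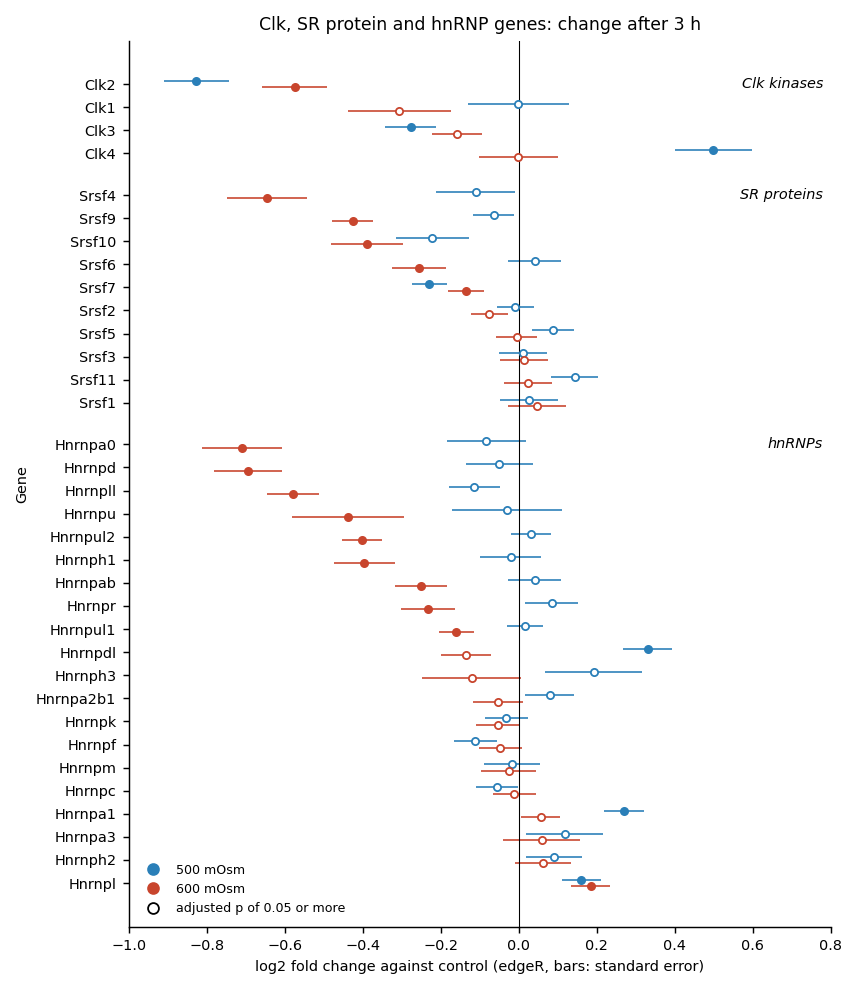
Log2 fold change against control (horizontal axis) of the 34 tested genes at 500 mOsm and 600 mOsm, with the SE as bars; filled points have an adjusted p under 0.05, and genes are ordered within each family by their value at 600 mOsm. Most filled points at 600 mOsm lie left of 0, from -0.14 for Srsf7 to -0.71 for Hnrnpa0, and the filled points right of 0 are Clk4, Hnrnpa1, Hnrnpdl and Hnrnpl.

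Of the 10 SR protein genes tested, 5 fell at 600 mOsm against control, namely Srsf4, Srsf6, Srsf7, Srsf9 and Srsf10 (50%, where 20.0% of all tested genes were lower). At 500 mOsm 1 fell, Srsf7 (10%, where 14.8% were lower). In edgeR 0 rose in any comparison (0 in DESeq2, and 1 at 500 mOsm at an unadjusted p under 0.05). Between the intensities, Srsf4, Srsf6 and Srsf9 were lower at 600 mOsm (30%, where 17.2% were). The median log2 fold change of the 10 genes was 0.00 at 500 mOsm and -0.11 at 600 mOsm against control.

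Srsf4 (SRp75, the longest of the classical SR proteins) lies at chr4:131873617-131901706. Its libraries read 22.9, 21.7 and 24.1 CPM in control, 20.6, 20.9 and 22.1 CPM at 500 mOsm and 17.0, 14.5 and 12.5 CPM at 600 mOsm. The libraries of the latter lay below all others, while those of control and 500 mOsm overlapped. At 600 mOsm Srsf4 fell by 36.1% against control (log2 fold change -0.65 ± 0.10, adjusted p = 0.000427) and dropped by 30.9% against 500 mOsm (-0.53 ± 0.10, adjusted p = 0.00185). An annotated transcript on the opposite strand, Gm12992, shares 1532 exonic bases with Srsf4, so reads of the 2 cannot be told apart without strand.

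Srsf9, a short SR protein that acts on alternative exons, lies at chr5:115327177-115333080 and was the most abundant SR gene per length in control, at 214 ± 6.05 FPKM (SD, n = 3). It stood at 238, 254 and 250.3 CPM in control, at 249.7, 237 and 222 CPM at 500 mOsm and at 192, 179 and 182 CPM at 600 mOsm, so the high-intensity libraries were below all others. Its log2 fold change at 600 mOsm was -0.43 ± 0.05 against control (adjusted p = 6.22e-05) and -0.36 ± 0.05 against 500 mOsm (adjusted p = 0.000258).

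The other SR genes that changed did so by less. Srsf10, a splicing repressor when dephosphorylated, read 61.5 to 75.4 CPM in control, 53.7 to 64.8 CPM at 500 mOsm and 48.5 to 58.2 CPM at 600 mOsm, a log2 fold change of -0.39 ± 0.09 at 600 mOsm (adjusted p = 0.00636). Srsf6 (SRp55) read 345 to 392 CPM in control, 357 to 406 CPM at 500 mOsm and 281 to 320.1 CPM at 600 mOsm. At 600 mOsm it fell by 16.3% against control, and it dropped by 18.6% against 500 mOsm. The former call was not kept without control replicate 1 or 600 mOsm replicate 3 (log2 fold change of -0.29 to -0.20 with a library left out, adjusted p of up to 0.0547). Nor was it kept with the replicate block together with a correction for gene length, or for GC and length (adjusted p of up to 0.0913). That against 500 mOsm was not kept with the length correction and block (adjusted p = 0.0618). Srsf7 (9G8), which shuttles to the cytoplasm in mRNA export, was the only SR gene that fell at 500 mOsm, from 217 to 234 CPM in control to 189 to 197 CPM (-0.23 ± 0.05, adjusted p = 0.00208). At 600 mOsm Srsf7 read 203 to 213 CPM, with all libraries below control (-0.14 ± 0.05, adjusted p = 0.0361). The latter call was not kept without control replicate 1 or 2 or without 600 mOsm replicate 1 or 2 (-0.17 to -0.11, adjusted p of up to 0.132), nor with DESeq2. In all, 6 of 13 other settings kept it. The call for Srsf7 at 500 mOsm was not kept with the GC and length correction together with the block (adjusted p = 0.0575).

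Among SR genes that passed in no comparison were those of the best studied members. Srsf1 (ASF/SF2) read 216 to 272 CPM in control, 232 to 256 CPM at 500 mOsm and 240.4 to 257 CPM at 600 mOsm. Srsf2 (SC35, a marker of nuclear speckles) read 174 to 188, 176 to 184 and 163 to 174 CPM in the same order. Srsf3 (SRp20), the smallest of the family, read 273 to 316, 282 to 301 and 274 to 308 CPM. Srsf5 read 105 to 115, 112 to 124 and 108 to 111 CPM, and Srsf11 read 93.0 to 99.7, 104 to 110.0 and 91.7 to 107 CPM. Srsf12, which was not tested, had 0 counts in the 3 control libraries together, 11 at 500 mOsm (5, 2 and 4) and 1 at 600 mOsm. A count of 3, the floor that a count of 0 allows, corresponds to 0.113 to 0.137 CPM per library and covers counting error only. No fold is given for Srsf12, whose levels were 0.0754 to 0.205 CPM at 500 mOsm.

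Of the 20 hnRNP genes, 9 fell at 600 mOsm against control (45%, where 20.0% of all tested genes were lower). Compared with 500 mOsm, 11 were lower at 600 mOsm (55%, where 17.2% were). At 500 mOsm 3 rose (15%, near the 13.2% of all tested genes). In edgeR 0 fell there (0 in DESeq2 and 0 at an unadjusted p under 0.05), where 14.8% of all tested genes did. The median log2 fold change of the hnRNP genes was 0.02 at 500 mOsm and -0.13 at 600 mOsm against control, and -0.25 between the intensities. Without 500 mOsm replicate 1 the last of these was -0.16.

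Hnrnpa0 (chr13:58125879-58128556), an intronless member of the A/B group that binds AU-rich elements, had the lowest log2 fold change of the 34 genes at 600 mOsm against control. It stood at 737, 862 and 783 CPM in control, at 828, 803 and 617 CPM at 500 mOsm and at 475, 445 and 537 CPM at 600 mOsm, with no high-intensity library reaching the lowest of the others. It fell by 38.9% against control (log2 fold change -0.71 ± 0.10, adjusted p = 0.000204) and dropped by 35.2% against 500 mOsm (-0.63 ± 0.10, adjusted p = 0.000582).

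Hnrnpd (AUF1, which binds AU-rich elements and speeds mRNA decay) stood at 159, 140.2 and 135 CPM in control, at 137, 134 and 148 CPM at 500 mOsm and at 93.6, 97.8 and 76.8 CPM at 600 mOsm. Control and low-intensity libraries overlapped, and all high-intensity libraries lay below them. The log2 fold change at 600 mOsm was -0.70 ± 0.09 against control (adjusted p = 6.28e-05) and -0.64 ± 0.09 against 500 mOsm (adjusted p = 0.000128).

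Hnrnpdl, its close relative, lies on the same strand of the same chromosome (chr5:100033577-100039664, with Hnrnpd at chr5:99958426-99978938), and its pattern was another one. It stood at 131, 118 and 119 CPM in control, at 167, 145 and 152 CPM at 500 mOsm and at 115, 114 and 107 CPM at 600 mOsm. It rose 1.26-fold at 500 mOsm (0.33 ± 0.06, adjusted p = 0.00148) and was lower at 600 than at 500 mOsm (-0.47 ± 0.06, adjusted p = 0.000131). The 600 mOsm libraries lay below control by a small margin that did not pass (adjusted p = 0.117). For these neighbours the RefSeq promoters are printed as above, with capitals for the same motifs.
Hnrnpd (chr5:99978889-99979188, strand -): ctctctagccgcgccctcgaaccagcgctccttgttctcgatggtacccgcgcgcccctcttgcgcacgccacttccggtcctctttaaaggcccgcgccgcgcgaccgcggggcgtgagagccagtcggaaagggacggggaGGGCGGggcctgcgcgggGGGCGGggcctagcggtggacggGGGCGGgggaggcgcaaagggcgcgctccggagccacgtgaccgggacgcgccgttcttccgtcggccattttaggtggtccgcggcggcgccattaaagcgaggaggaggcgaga
Hnrnpdl (chr5:100039173-100039472, strand -): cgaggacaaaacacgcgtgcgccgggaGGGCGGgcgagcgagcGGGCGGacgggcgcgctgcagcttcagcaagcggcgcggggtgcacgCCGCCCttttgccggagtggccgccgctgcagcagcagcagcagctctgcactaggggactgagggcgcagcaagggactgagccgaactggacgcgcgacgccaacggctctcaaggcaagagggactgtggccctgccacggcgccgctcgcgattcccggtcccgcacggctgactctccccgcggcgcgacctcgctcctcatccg
Each of the 2 windows held 3 GC boxes and neither a CCAAT box nor a CRE core.

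Hnrnpll (chr17:80029487-80062334), which controls alternative exons of CD45 in lymphocytes, fell from 105, 94.7 and 94.8 CPM in control and 95.4, 86.5 and 90.3 CPM at 500 mOsm to 65.1, 71.0 and 61.1 CPM at 600 mOsm. The high-intensity libraries were again below all others. It fell by 33.1% against control (adjusted p = 3.38e-05) and dropped by 27.6% against 500 mOsm (adjusted p = 0.000218). Its relative Hnrnpl, a global regulator that binds CA repeats, moved the other way. It read 541, 582 and 552 CPM in control, 614, 654 and 603 CPM at 500 mOsm and 657, 603 and 643 CPM at 600 mOsm (log2 fold changes 0.16 ± 0.05, adjusted p = 0.0298, and 0.18 ± 0.05, adjusted p = 0.0127). All stressed libraries lay above all control libraries. The call at 500 mOsm was not kept without control replicate 1 or 3 or 500 mOsm replicate 2 (0.11 to 0.19, adjusted p of up to 0.178). Of the 13 other settings 7 kept it. It was lost without a filter, with the replicate block, and with the corrections for gene length or for GC and length. There the value came as near to 0 as 0.02 (adjusted p of up to 0.707). The call at 600 mOsm was not kept without control replicate 1 or 600 mOsm replicate 1 (0.16 to 0.22, adjusted p of up to 0.0611). With the length correction together with the replicate block it was not kept either (adjusted p = 0.0748).

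Hnrnpul2 (chr19:8819401-8834142), a nuclear scaffold protein of the U group, stood at 221, 215 and 208 CPM in control, at 234, 217 and 208 CPM at 500 mOsm and at 165, 164 and 158 CPM at 600 mOsm. Its 3 high-intensity libraries agreed closely and lay below all others. The log2 fold change at 600 mOsm was -0.40 ± 0.05 against control (adjusted p = 7.30e-05) and -0.43 ± 0.05 against 500 mOsm (adjusted p = 4.43e-05). Over the other settings the values came as near to 0 as -0.22 and -0.20, and every setting kept the calls.

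Hnrnpu (chr1:178324343-178337797), which tethers RNA to chromatin, was the least certain of the decreases among the hnRNPs between the intensities. It read 34.5, 26.9 and 32.2 CPM in control, 32.5, 25.7 and 33.3 CPM at 500 mOsm and 20.4, 28.6 and 20.1 CPM at 600 mOsm, so that replicate 2 at 600 mOsm lay within the range of the other treatments. The log2 fold change was -0.44 ± 0.14 against control (adjusted p = 0.0319) and -0.41 ± 0.14 against 500 mOsm (adjusted p = 0.0497). Neither call was kept without control replicate 3 or without 600 mOsm replicate 1 or 3, the former also not without control replicate 1 and the latter not without 500 mOsm replicate 1 or 3. Left-out values ran from -0.62 to -0.35 (adjusted p of up to 0.125) and from -0.59 to -0.32 (adjusted p of up to 0.181). Of the 13 other settings, 8 kept the call against control and 4 that against 500 mOsm. Values came as near to 0 as -0.24 (adjusted p of up to 0.190) and -0.16 (adjusted p of up to 0.399). Hnrnpu also overlaps with another gene. Its exons share 804 bases with Cox20 on the opposite strand.

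Smaller decreases made up the rest. Hnrnph1, which binds G-rich sequences, read 124 to 137 CPM in control, 116 to 141 CPM at 500 mOsm and 93.4 to 109 CPM at 600 mOsm (-0.40 ± 0.08, adjusted p = 0.00198 against control). Hnrnpab, the gene with the highest level per length (423 ± 10.8 FPKM in control), read 966 to 1036, 908 to 1112 and 799 to 876 CPM (-0.25 ± 0.07, adjusted p = 0.0116). Hnrnpr read 61.2 to 69.4, 65.9 to 69.6 and 52.0 to 59.5 CPM (-0.23 ± 0.07, adjusted p = 0.0193). The call for Hnrnpr was not kept without control replicate 1 or 600 mOsm replicate 1 or 3 (-0.30 to -0.18, adjusted p of up to 0.0876), and a correction for gene length, 7986 bases in the table, brought the value to as little as -0.02. Hnrnpul1 read 273 to 288, 275 to 291 and 246 to 263 CPM (-0.16 ± 0.05, adjusted p = 0.0172), a call not kept without control replicate 1 or 2 or 600 mOsm replicate 3 (-0.19 to -0.14, adjusted p of up to 0.0619). Without a filter, or with the length correction alone or with the block, that call was not kept either (adjusted p of up to 0.150). Against 500 mOsm these 4 genes were lower as well (adjusted p = 0.00325, 0.00582, 0.00381 and 0.0124). Of these calls, that of Hnrnpr was not kept with the length corrections (value as near to 0 as -0.06, adjusted p of up to 0.649). That of Hnrnpul1 was not kept without a filter, with the length corrections or without 600 mOsm replicate 3 (adjusted p of 0.0501), and that of Hnrnpab not with the GC and length correction together with the block (adjusted p = 0.0516).

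Hnrnpa1, the A/B member best known for repressing exons and for its move to the cytoplasm in osmotic stress, rose at 500 mOsm. It read 478, 469 and 482 CPM in control, 616, 549 and 558 CPM at 500 mOsm and 492, 515 and 477 CPM at 600 mOsm, with the low-intensity libraries above all others. The log2 fold change was 0.27 ± 0.05 at 500 mOsm (adjusted p = 0.00137) and -0.21 ± 0.05 from 500 to 600 mOsm (adjusted p = 0.00693). With a correction for gene length neither call passed (smallest values 0.16 and -0.15). Hnrnpa1 shares stretches of at least 100 bases at 95% identity with transcripts of 12 other genes, up to 1117 bases long, so some of its reads could have been split with copies.

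In 8 hnRNP genes no comparison passed. In CPM over all libraries, Hnrnpa2b1 read 715 to 889.7, Hnrnpa3 236 to 317, Hnrnpc 327 to 385, Hnrnpf 374 to 449, Hnrnph2 51.2 to 61.7, Hnrnph3 7.31 to 11.5, Hnrnpk 467 to 548 and Hnrnpm 293.6 to 350.1. Hnrnpk and Hnrnpc are among the core proteins of hnRNP particles, and Hnrnpa2b1 sorts RNAs into granules and vesicles. Hnrnpa3 shares sequence with transcripts of 37 other genes and Hnrnpf with 10, and their values are uncertain to that extent. The exons of Hnrnpm share 1169 bases with those of March2 on the same strand.

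Summed over a family, hnRNP transcripts made up 6658 ± 71.7 CPM in control, 6844 ± 315 CPM at 500 mOsm and 5996 ± 143 CPM at 600 mOsm (SD, n = 3). SR transcripts summed to 1844 ± 93.5, 1821 ± 46.3 and 1679 ± 44.4 CPM, and Clk transcripts to 83.1 ± 1.41, 72.0 ± 1.89 and 69.6 ± 0.576 CPM. The 3 hnRNP sums at 600 mOsm (5832 to 6094 CPM) lay below those of the other treatments (6551 to 7178 CPM). As a share of all counts, hnRNP genes took 0.669% ± 0.0115 in control and 0.594% ± 0.0245 at 600 mOsm. Such sums follow their most abundant members and were not tested.

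Per length, levels spanned from 423 FPKM for Hnrnpab to 1.93 FPKM for Clk1 in control. Behind Hnrnpab, in the range of 278 to 319 FPKM, came Hnrnpa0, and Hnrnpa1 (242 to 254 FPKM) overlapped with neither. Srsf9 (207 to 218), Hnrnpl (204 to 216) and Hnrnpa2b1 (185 to 214) overlapped with each other, and Hnrnpa2b1 also with Hnrnpk (166 to 187) and Hnrnpf (166 to 189). Hnrnpc followed at 124 to 137 FPKM. Srsf6, Srsf7 and Srsf2, the next in order, lay at 92.4 to 113 FPKM and overlapped from each to the next, and Hnrnpul1, Hnrnpm and Srsf3 lay at 69.2 to 85.0. Hnrnpa3, Hnrnpdl and Srsf1 overlapped at 40.7 to 57.5 FPKM, and Hnrnpul2 (36.8 to 39.1) overlapped with Hnrnpd (31.6 to 37.1). The lowest were Hnrnpr, Clk2 and Srsf4 (6.95 to 8.79 FPKM), then Hnrnpu, Clk4 and Hnrnph3 (3.50 to 4.56) and last Clk1 (1.65 to 2.21). At 600 mOsm Hnrnpa0 was at 179 ± 14.2 FPKM, below the means of Hnrnpab, Hnrnpa1 (256 ± 14.5 FPKM), Hnrnpl and Hnrnpa2b1. A gene's FPKM depends on the length that the table gives it, which is that of a long transcript for several of these genes.

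**Figure D3:**
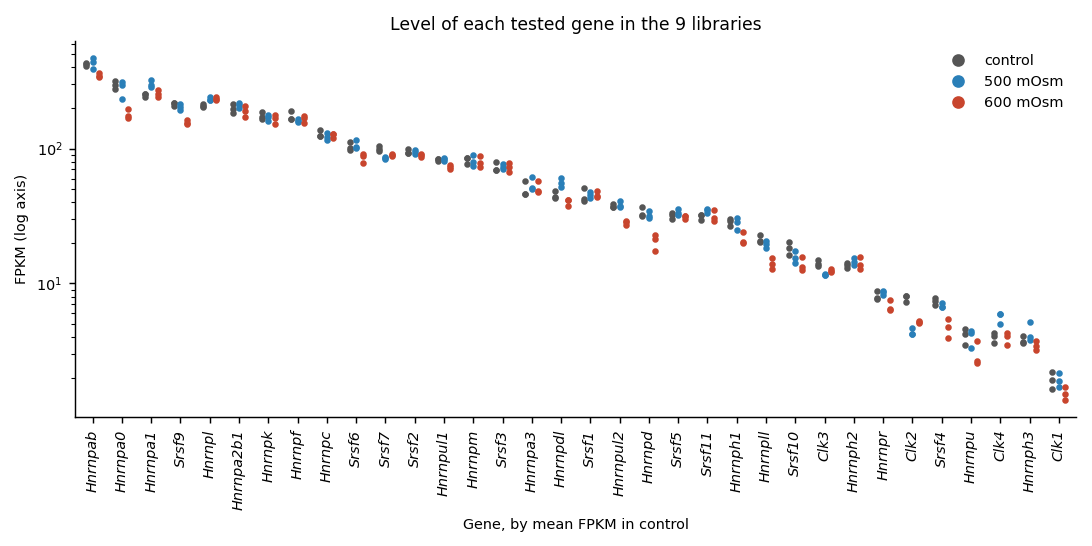
FPKM (log axis) of the 34 tested genes in each of the 9 libraries, ordered by the mean in control; colours give the treatment. Levels run from about 423 FPKM for Hnrnpab to 1.93 FPKM for Clk1 in control, and the 600 mOsm points of Hnrnpa0, Hnrnpd, Hnrnpll and Srsf4 lie apart from the other treatments.

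The balance of transcripts within pairs of related genes is given as a ratio. The 10 pairs are those genes of a family that are each other's best match in coding sequence, with 72.0% to 85.7% identical bases. The log2 ratio of the pair within a library does not depend on the scaling between libraries. Corrections for gene length or GC content act on each gene and do not cancel in it. They were not applied to the ratios. Hnrnpl to Hnrnpll rose from 2.51 ± 0.131 (SD, n = 3) in control to 2.78 ± 0.122 at 500 mOsm and 3.27 ± 0.164 at 600 mOsm, with no overlap between treatments. Hnrnph1 to Hnrnph2 went from 1.27 ± 0.0574 through 1.16 ± 0.0666 to 0.82 ± 0.0747, also without overlap. Hnrnph2, the partner of Hnrnph1 in this ratio, passed in no comparison.

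Clk1 to Clk4 stood at -0.60 ± 0.141 in control, -1.10 ± 0.102 at 500 mOsm and -0.90 ± 0.189 at 600 mOsm. Clk2 to Clk3 went from -0.51 ± 0.166 to -1.06 ± 0.0831 and -0.93 ± 0.0432. In both Clk pairs the control libraries lay above all stressed libraries, and the 500 and 600 mOsm libraries overlapped. Srsf1 to Srsf9 stood at -0.06 ± 0.219 and 0.04 ± 0.0794 in control and at 500 mOsm, which overlapped, and at 0.42 ± 0.0934 at 600 mOsm, above both. Srsf4 to Srsf6 fell from -3.99 ± 0.114 to -4.39 ± 0.161 between control and 600 mOsm, and Srsf3 to Srsf7 rose from 0.35 ± 0.0729 to 0.59 ± 0.0688 between control and 500 mOsm. Hnrnpab to Hnrnpd stood at 2.79 ± 0.158, 2.87 ± 0.221 and 3.23 ± 0.209, highest at 600 mOsm without overlap. Hnrnpa1 to Hnrnpa3 and Hnrnpu to Hnrnpul1 overlapped between control and both stress intensities. Of 30 comparisons, 18 reached p = 0.1, the smallest p that an exact two-sided permutation test of 3 against 3 libraries can give (0.167 after Benjamini-Hochberg adjustment over the 30), so none could pass 0.05. A p of 0.1 here means only that the libraries of the compared treatments did not overlap. How often other pairs of genes do so was not counted.

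**Figure D4:**
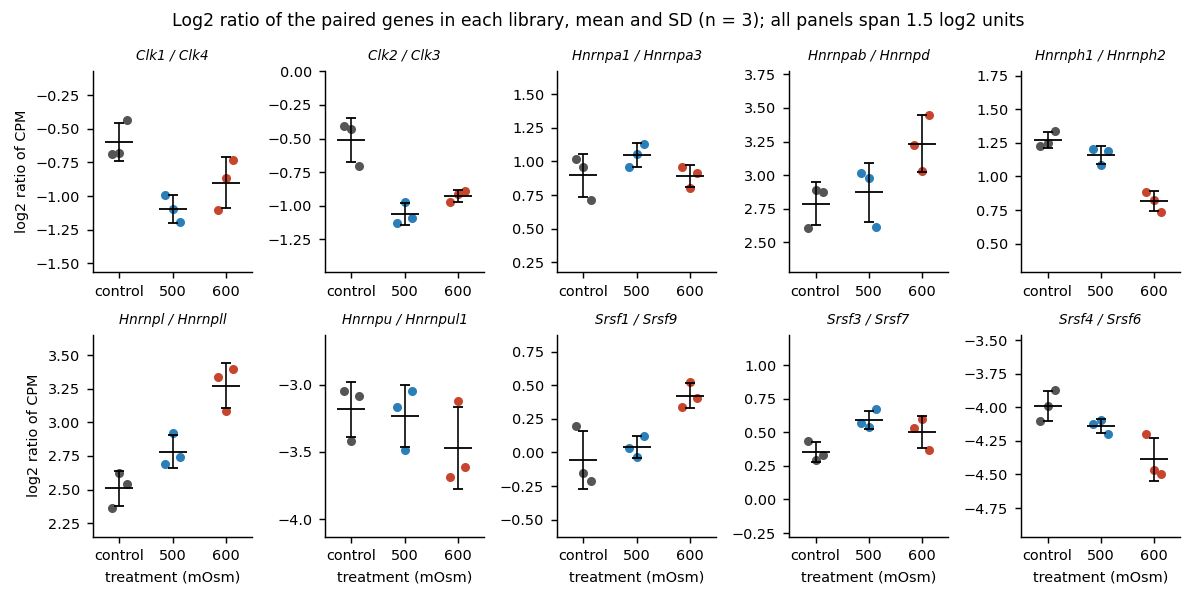
Log2 ratio of CPM (vertical axes, each spanning the same range) of 10 pairs of related genes in each library, by treatment, with the mean and SD (n = 3). Hnrnpl / Hnrnpll goes from 2.51 in control to 3.27 at 600 mOsm and Hnrnph1 / Hnrnph2 from 1.27 to 0.82, without overlap between treatments, whereas Hnrnpu / Hnrnpul1 overlaps throughout.

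Features of the 34 tested genes that the symbols do not fix were compared with those of 11958 tested protein-coding genes, as a description. The median GC content of the longest transcript was 43.3% (50.2% for protein-coding genes), its extremes 37.1% for Hnrnph1 and 55.4% for Clk2. The gene span had a median of 12164.5 bases (22796 for protein-coding genes), and the median average log2 CPM was 7.55 (4.50). GENCODE M21 lists a transcript of the nonsense-mediated decay class for 23 of the 34 genes, or 67.6% (28.5%), and a retained intron transcript for 26, or 76.5% (59.1%). For the 15 genes that were lower at 600 mOsm than in control and the other 19, the median GC content was 42.8% and 43.6%, the median length 3527 and 3106 bases, and the share with a nonsense-mediated decay transcript 9 of 15 and 14 of 19. Of all 35 genes, 21 share at least 100 bases at 95% identity with transcripts of another gene, and 15 overlap with exons of another gene.

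The promoters were searched on both strands for 7 motifs. Of 44 RefSeq promoters of the 32 matched genes, 84.1% held a GC box (35.7% of all 32851 promoters), 59.1% a CRE core (20.8%) and 22 of the 44 a CCAAT box (37.4%). A TATA box (TATAAA) was in 9.09% (13.6%). The heat shock element GAANNTTC was in 11.4% (7.86%), in promoters of Hnrnpa2b1, Hnrnpf, Hnrnpl and Srsf9. The binding element of TonEBP, the transcription factor of osmotic stress, was found in 6.82% (4.96%), namely in Hnrnpc, Hnrnpf and Srsf7, and the kappa B element in 6.82% (8.46%), namely in Hnrnpf, Hnrnpr and Srsf9. Promoters of 1 gene overlap and are not independent.

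The genes around the SR proteins and hnRNPs in the pathway were taken from 6 lists. Their counts are to be read against the shares over all tested genes, which were 13.2% higher and 14.8% lower at 500 mOsm against control, 15.1% and 20.0% at 600 mOsm against control, and 11.9% and 17.2% at 600 against 500 mOsm. Among 8 other kinases of SR proteins, at 500 mOsm 2 passed upwards and 2 downwards (25% each), at 600 mOsm against control 0 and 2 (25%), and between the intensities 1 and 2 (for the count of 0, 0 in DESeq2 and 0 at an unadjusted p under 0.05). Dyrk3, which dissolves nuclear speckles and stress granules, rose at 500 mOsm, with 6.39 ± 0.923 CPM in control, 16.5 ± 0.379 CPM at 500 mOsm and 6.27 ± 0.471 CPM at 600 mOsm (SD, n = 3). Its log2 fold change was 1.37 ± 0.11 (SE) at 500 mOsm (adjusted p = 1.14e-06) and -1.40 ± 0.11 from 500 to 600 mOsm (adjusted p = 1.30e-06). Srpk1, the main cytoplasmic kinase of SR proteins, fell at 500 mOsm from 127 ± 6.05 to 106 ± 2.47 CPM (-0.26 ± 0.05, adjusted p = 0.00335). Dyrk1a fell at both intensities, from 68.0 ± 1.78 to 58.0 ± 0.995 and 48.0 ± 2.96 CPM, and Dyrk2 fell at 600 mOsm from 40.2 ± 1.96 to 24.0 ± 5.71 CPM. Of the 3 import receptors, Tnpo2 rose at both intensities, from 482 ± 4.97 to 548 ± 13.7 and 538 ± 25.8 CPM. The call for Tnpo2 at 600 mOsm was not kept without control replicate 3 or 600 mOsm replicate 1 (log2 fold change of 0.12 to 0.18 with a library left out, adjusted p of up to 0.0778), and that at 500 mOsm was not kept with the length correction (value as low as 0.05). Tnpo1 and Tnpo3, receptors for hnRNP A1 and for SR proteins, passed in no comparison.

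Of 30 SR-related splicing proteins, 9 were lower at 600 mOsm than in control (30%, where 20.0% of all tested genes were) and 0 higher in edgeR (0 in DESeq2, 1 at an unadjusted p under 0.05), and 9 were lower and 1 higher than at 500 mOsm, whereas at 500 mOsm 1 was higher and 2 lower than in control. Scaf4, which binds the tail of RNA polymerase II, had the largest change of the list, from 81.7 ± 2.29 CPM in control and 70.7 ± 1.12 CPM at 500 mOsm to 34.7 ± 3.12 CPM at 600 mOsm (log2 fold change against control -1.24 ± 0.07, adjusted p = 4.62e-08). Arglu1 fell from 70.7 ± 2.14 to 42.4 ± 0.714 CPM at 600 mOsm and Srrm1 from 301 ± 3.02 to 200.0 ± 9.58 CPM, and Srrm2, a scaffold of nuclear speckles, stood at 565 ± 26.4 CPM at 500 mOsm and 379 ± 32.2 CPM at 600 mOsm.

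Of 43 tested splicing regulators with other names, 13 were lower and 1 higher at 600 mOsm than in control (30.2% and 2.33%, where 20.0% and 15.1% of all tested genes were), and 12 lower and 1 higher than at 500 mOsm (27.9% and 2.33%, where 17.2% and 11.9% were). At 500 mOsm 5 were lower and 3 higher than in control, shares of 11.6% and 6.98% that lie under those of all tested genes. Khdrbs1 (Sam68) fell from 199 ± 9.31 to 140.1 ± 4.76 CPM at 600 mOsm and Celf1 from 232 ± 13.6 to 167 ± 11.9 CPM. Rbm5, a regulator of apoptotic exons, fell at 500 mOsm from 48.7 ± 2.35 to 27.5 ± 1.87 CPM (adjusted p = 1.39e-06) and stood at 40.2 ± 0.996 CPM at 600 mOsm. Rbm4b fell from 9.18 ± 1.08 to 5.47 ± 0.645 CPM at 500 mOsm. Esrp2, an epithelial regulator near the detection limit, went from 0.182 ± 0.0910 to 1.37 ± 0.107 CPM at 500 mOsm. Of the epithelial markers only Cdh1 rose there in a like way (0 to 0.0410 and 3.28 to 3.69 CPM). Epcam, Krt5, Krt14, Cldn4 and Esrp1 read 0 to 0.191 CPM in all libraries.

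Of 57 tested genes of the core spliceosome, 12 were higher and 6 lower at 600 mOsm than in control (21.1% and 10.5%, where 15.1% and 20.0% of all tested genes were). Between the intensities 14 were higher and 1 lower at 600 mOsm (24.6% and 1.75%, where 11.9% and 17.2% were). At 500 mOsm 0 were higher in edgeR (0 in DESeq2, 1 at an unadjusted p under 0.05) and 4 lower than in control. Dhx8, a helicase that releases spliced mRNA, fell from 125 ± 3.47 to 67.5 ± 4.08 CPM at 500 mOsm (adjusted p = 1.81e-07) and stood at 91.4 ± 4.08 CPM at 600 mOsm. Cwc25 fell from 32.6 ± 0.289 to 23.2 ± 0.928 CPM and 23.4 ± 0.344 CPM, Sf1, the branch point binding protein, fell only at 600 mOsm from 497 ± 17.7 to 367 ± 9.69 CPM, and Lsm7 rose there from 131 ± 3.40 to 162 ± 11.4 CPM. With the correction for gene length Lsm7 did not pass against control (smallest log2 fold change 0.10). Of 17 genes of nonsense-mediated decay and the exon junction complex, 3 passed upwards and 2 downwards at 500 mOsm against control (17.6% and 11.8%, near the 13.2% and 14.8% of all tested genes), and 4 and 3 did so at 600 mOsm (23.5% and 17.6%, where 15.1% and 20.0% did). Smg8 fell at 500 mOsm from 65.9 ± 4.96 to 42.1 ± 2.30 CPM and Smg6, the endonuclease of the pathway, rose from 48.3 ± 1.5 to 61.4 ± 0.973 CPM. At 600 mOsm Nbas rose from 54.0 ± 0.372 to 65.2 ± 0.871 CPM, and Upf3a fell from 84.7 ± 0.861 to 69.9 ± 1.62 CPM.

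**Figure D5:**
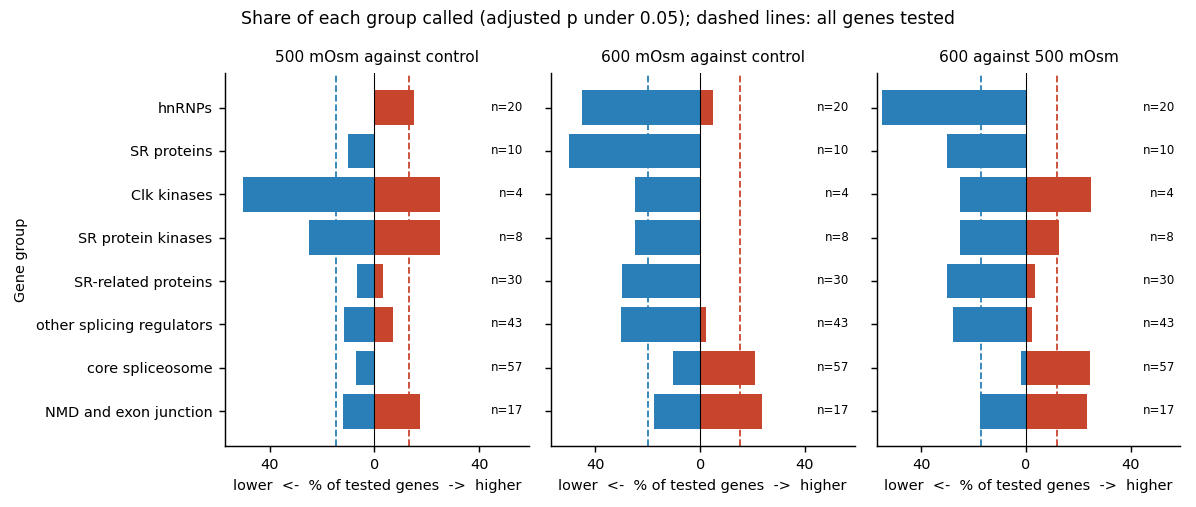
Share of tested genes (horizontal axes, %) that were higher (right) or lower (left) in each of 3 comparisons, for the 3 families and 5 lists of the pathway, with the number tested beside each bar; dashed lines give the shares over all tested genes. At 600 mOsm against control 45% of the hnRNP genes and 50% of the SR genes were lower, where the line stands at 20.0%, and the core spliceosome has its longer bar on the right (21.1%).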

How the data were processed

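Poly-T enriched RNA was sequenced as paired-end reads of 150 bp, and the submitters' processing notes name CASAVA 1.8, STAR and mm10. The authors deposited 1 table with, for each library, the count of reads per gene, without normalization, and FPKM. All 160903 FPKM values above 0 deposited by the authors equalled the count divided by gene length and library total, within a relative tolerance of 0.0001. The authors' fold changes and p-values in the table were not used. The counting tool and its strand setting are not given in the sources used here.

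Counts were normalized by TMM, filtered by filterByExpr and tested by the quasi-likelihood test of edgeR 4.0.16 in R 4.3.3, fitting the 3 treatments over all 9 libraries together. The Benjamini-Hochberg adjustment ran over 13082 genes with a threshold of 0.05. TMM factors lay between 0.974 and 1.013, and the biological coefficient of variation, common to all genes, was 0.0756. The SE of a log2 fold change lay between 0.0458 and 0.144 in the 34 tested genes of the families. The script was tested on simulated data. Annotation came from GENCODE M21, and blastn 2.17.0 was used to look for sequence shared between genes. Alternatives used DESeq2 1.42.0 and limma 3.58.1, and the corrections for GC content were added after the data were seen.

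Values in every library are given for the 10 genes of the families with the largest absolute log2 fold change, since fewer than 10 passed with 0.5 or more, for the 4 Clk genes, and for Hnrnpl and Hnrnpa1, chosen after their values were seen. Of the other lists up to 3 genes per comparison with the smallest p are named, and 1 gene that this rule names is not reported here. The symbol Qk stands for 2 rows of the table. The genes, lists and comparisons were chosen with earlier results of these data known. Same-numbered libraries were not paired: their deviations from the treatment mean correlated with a mean r of -0.242. Centring within each treatment ties this mean to that of the other pairs. Some libraries correlated across treatments whatever their number. Control 2, 500 mOsm 2 and 600 mOsm 3 had r of 0.611, 0.603 and 0.558. Control 3, 500 mOsm 1 and 600 mOsm 2 had r of 0.577, 0.393 and 0.440. Neither the fit nor the replicate block models such sets, and their origin was not tested.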

Additional observations from a re-analysis of the deposited data

How the results depend on the processing

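Of 39 called values of SR protein, hnRNP and Clk genes, 23 kept their call and direction under all 13 other settings and with each library left out, and 0 changed direction. Kept in this sense were those of Clk2 and Clk3 against control as called, of Clk4, Hnrnpa0, Hnrnpd, Hnrnpdl, Hnrnph1, Hnrnpll, Hnrnpul2, Srsf4, Srsf9 and Srsf10, and of Hnrnpab against control. A library left out ended 10 calls and another setting 16. The cause was not tested.

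The replicate numbers did not pair the libraries. Same-numbered pairs correlated from -0.688 to 0.611 in their deviations, over 9 pairs, against a mean of 0.123 for 18 other pairs. In both other treatments at once, 0 libraries correlated best with their own number. Control 2 and 500 mOsm 2 did correlate best with each other (r = 0.611). With the replicate block, 3 genes of the families were higher and 3 lower at 500 mOsm, 1 and 13 at 600 mOsm against control, and 0 and 14 at 600 against 500 mOsm.

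At 500 mOsm against control, 2 family genes were higher with the length correction, alone or with the block, and 7 with the GC and length correction, and 6 were lower with either correction without the block. At 600 mOsm against control, 0 were higher with the length correction and block, and 2 with the GC and length correction, with or without the block. Left-out libraries gave 0 to 1. At 600 against 500 mOsm, 0 were higher with library size alone, with at least 10 counts in every library, with DESeq2, with only the 2 treatments compared and with the block, 2 with the length correction, 4 with the GC and length correction and 3 with that and the block. Left-out libraries gave 0 to 1. Leaving out libraries aside, the numbers over all tested genes mostly moved in the same direction. With the GC and length correction, however, fewer of all tested genes were higher at 500 mOsm against control than in the main fit. With that and the block, fewer were higher at 600 mOsm against control.

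Of the other lists together, higher at 500 mOsm were 10 genes (6 with the length correction, 5 with that and the block, 6 to 10 with a library left out), and lower were 15 (31, and 41 with the GC and length correction, 38 with that and the block). At 600 mOsm against control 18 were higher (11 with the length correction and block, 29 with the GC and length correction, 10 to 19 with a library left out). At 600 against 500 mOsm 21 were higher (13 with the block, 34 with the length correction, 49 with the GC and length correction, 42 with that and the block, 12 to 23 with a library left out), and 27 were lower (16 with the length correction, with or without the block). The numbers called over all tested genes moved in the same direction with each correction and block named here. Such shifts were therefore not particular to these lists, and whether the lists moved more than all tested genes was not tested.

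Family medians moved with the corrections and not with the scaling factors. With the length correction, without and with the block, the log2 median was 0.00844 and 0.00850 for Clk (600 against 500 mOsm), -0.0376 and -0.0391 for hnRNP (500 mOsm against control), -0.13 and -0.13 for hnRNP (600 against 500 mOsm), -0.0768 and -0.0752 for SR (500 mOsm against control) and -0.0403 and -0.0404 for SR (600 against 500 mOsm). With the GC and length correction, without and with the block, it was -0.15 and -0.15 for hnRNP (600 against 500 mOsm) and -0.0416 and -0.0409 for hnRNP (600 mOsm against control). Left-out libraries gave -0.27 to -0.16, the latter without 500 mOsm replicate 1, for hnRNP (600 against 500 mOsm).

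Values near 0 changed sign without a call. Clk1 at 500 mOsm, at -0.00, was 0.0112 with at least 10 counts in every library, 0.000784 with the block, 0.0621 with the GC and length correction, 0.0645 with that and the block, and -0.10 to 0.10 with a library left out. Clk4 at 600 mOsm, at -0.00, was 0.00159 with RLE factors, 0.00235 without a filter, 0.000852 with DESeq2, 0.00401 with only the 2 treatments compared and 0.000362 with the block. It was 0.0353 with the length correction (0.0367 with the block), 0.0400 with the GC and length correction (0.0395 with the block), and -0.0614 to 0.0708 with a library left out. Low counts limit what can be said of Clk1 and Hnrnph3, and counts per gene do not separate transcript classes.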
